A study of Mus musculus with 6 samples.

Results

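The 10 genes described here take up cystine, make and use glutathione, and limit oxidative damage in cells. They are Slc7a11, Slc3a2, Gclc, Gclm, Gpx4, Hmox1, Nqo1, Srxn1, Txnrd1 and Fth1, and all 10 were among the 18848 genes of the deposited expression table. The list was chosen by gene name with earlier results of these data known. Which values were consulted is not recorded, so counts over the list are given as description and are set beside the same counts over all genes tested. Single cells came from tumours labelled PPS-ICBR, a mouse prostate cancer line resistant to immune checkpoint blockade, in C57Bl6 mice.

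There were 4 groups of 3 tumours each. BD+ICB mice had a chow supplemented with 1,3-butanediol (80 mL of 1,3-butanediol and 120 mL of water to 198 g of chow and 2 g of saccharine) together with antibodies to PD-1 and CTLA-4 at 0.2 mg. ICB mice had the same antibodies on standard chow, BD mice had the butanediol chow without antibodies, and SD mice had standard chow alone. All 4 groups carried the same tumour line, and leukocytes were enriched over Percoll before capture. Tumours were pooled by hashtag into 2 droplet libraries, with BD and SD tumours in one and BD+ICB and ICB tumours in the other, so blockade and library cannot be told apart. Listed tumour sizes, in an unstated unit, were 48, 23 and 90 for BD+ICB, 1116, 995 and 289 for ICB, 178, 203 and 172 for BD, and 2348, 1216 and 870 for SD. Diet therefore moved with tumour size, and their parts in any result were not tested.

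The deposited table held 5749 cells in 19 named classes. Per tumour there were 70 to 913 cells, 510984 to 13007506 UMIs (unique molecular identifiers, each a counted RNA molecule) and a median of 4544.5 to 10817 UMIs per cell. BD replicate 2 was the smallest, with 70 cells. The median hashtag count was lower with the diet, at 921 to 1169 in BD+ICB tumours against 2083 to 2778.5 in ICB tumours, and at 677 to 795 in BD tumours against 1504.5 to 1632.5 in SD tumours. A stricter hashtag rule kept 5325 cells, and 186 deposited cells had a barcode that occurs in both libraries, 2 of these barcodes being a cell in each. Marker genes fitted most class names. Neutrophil classes held all 8 neutrophil markers and CD8 T cells 7 of 8 T cell markers. The Nos2+ class named dendritic held 10 of 10 macrophage markers and 0 of 9 dendritic cell markers at 20 CPM or more (CPM: UMIs of a gene per 1000000 UMIs of the same cells), and is called Nos2+ cells here. By the same measure, the other dendritic cells held 5 of 9 dendritic cell markers and 9 of 10 macrophage markers. CD4 T cells held 7 of 8 T cell markers and 4 of 8 neutrophil markers. The class named proliferating cancer had Krt8 at 798 ± 274 CPM, with Epcam at 0.568 CPM and Krt5 at 0 CPM (SD, n = 7 tumours). It held 6 of 6 proliferation markers, 9 of 10 mesenchymal markers and 3 of 9 prostate epithelium markers at 20 CPM or more, with Col1a1 at 519 ± 140.5 CPM. Krt8 was 937 ± 247 CPM in the class named mesenchymal (n = 6), above its mean in the proliferating class, and the name proliferating cancer cells is the deposited one.

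Slc7a11 and Slc3a2 form system xc-, an antiporter that brings cystine into the cell in exchange for glutamate. Cystine gives the cysteine for glutathione, whose first and limiting step is catalysed by glutamate-cysteine ligase, a pair of the catalytic subunit Gclc and the modifier subunit Gclm. Gpx4 uses glutathione to reduce lipid peroxides and so guards against ferroptosis, an iron-dependent form of cell death. Srxn1 and Txnrd1 restore peroxiredoxins and thioredoxin, Hmox1 breaks down haem, Nqo1 reduces quinones, and Fth1 stores iron as the heavy chain of ferritin. Many of these genes are known targets of the transcription factor NRF2, and Slc7a11 is also a target of ATF4.

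The promoters of Slc7a11, Srxn1 and Txnrd1 are shown because Slc7a11 varied widely between cell classes while Srxn1 and Txnrd1 followed each other. Sequences are from RefSeq on GRCm38.p6, 250 bases before to 50 after a listed start, 5′ to 3′ on the gene's strand. Of the 10 genes, 8 had an entry. Searched on both strands, capitals mark TGATGCAA (an ATF4 amino acid response motif) in the Slc7a11 window at chr3:50443564-50443863 on the minus strand. In the Srxn1 window at chr2:152105274-152105573 on the plus strand, capitals mark TGANTCA (AP-1) and TGACNNNGC (the core of the antioxidant response element). In 1 of 3 windows listed for Txnrd1, at chr10:82858956-82859255 on the plus strand, they mark TGACNNNGC only. The Slc7a11 start lies inside the extent of the gene in RefSeq (chromosome 3, 50364936 to 50499087).
Slc7a11: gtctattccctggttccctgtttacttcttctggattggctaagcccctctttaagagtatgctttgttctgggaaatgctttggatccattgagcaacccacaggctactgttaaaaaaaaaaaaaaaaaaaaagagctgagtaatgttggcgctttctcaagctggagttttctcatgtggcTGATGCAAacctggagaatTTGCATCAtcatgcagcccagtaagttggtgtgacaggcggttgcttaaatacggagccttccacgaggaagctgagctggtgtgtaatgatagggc
Srxn1: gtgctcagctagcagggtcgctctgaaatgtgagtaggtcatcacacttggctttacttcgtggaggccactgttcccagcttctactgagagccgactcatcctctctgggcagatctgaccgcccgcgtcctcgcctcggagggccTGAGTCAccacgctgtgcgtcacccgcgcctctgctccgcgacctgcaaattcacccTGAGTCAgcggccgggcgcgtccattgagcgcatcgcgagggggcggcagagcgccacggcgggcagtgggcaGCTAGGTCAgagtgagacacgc
Txnrd1: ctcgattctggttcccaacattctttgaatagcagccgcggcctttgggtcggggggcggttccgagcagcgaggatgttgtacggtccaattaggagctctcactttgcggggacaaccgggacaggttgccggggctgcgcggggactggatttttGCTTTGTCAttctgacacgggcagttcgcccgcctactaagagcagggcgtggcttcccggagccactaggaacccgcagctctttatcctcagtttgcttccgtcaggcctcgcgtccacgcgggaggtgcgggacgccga
TGATGCAA occurred at 2 places in the Slc7a11 window, beginning 66 and 47 bases before the start, and in 0.895% of all 32851 listed windows. Srxn1 held TGANTCA at 2 places, 102 and 45 bases before its start, a motif found in 7.81% of windows. TGACNNNGC was found in the windows of Srxn1, Gclm and Txnrd1, and in 12.4% of all windows. These matches describe the letters only.

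Slc7a11, the cystine-carrying chain of system xc-, had its highest class means in the 3 neutrophil classes. Levels here are CPM of UMIs summed per tumour and class, for tumours with at least 10 cells of the class. Classes differed in the groups they drew on, so for every gene the order of classes mixes class with treatment and library. The Ifit+ neutrophil mean used only ICB tumours and BD+ICB replicate 3. Nos2+ cells had no SD tumour with enough cells, mesenchymal cells only ICB and SD tumours, and proliferating cancer cells no BD tumour. Ifit+ neutrophils had 2664 ± 474 CPM (SD, n = 4 tumours), Cxcr2+ neutrophils 2658 ± 994 CPM (n = 11) and Hilpda+ neutrophils 1755 ± 591 CPM (n = 8). Next came Nos2+ cells at 920.2 ± 114 CPM (n = 6), Vcan+ monocytes at 835 ± 191 CPM (n = 7) and M1 macrophages at 631 ± 183 CPM (n = 10). Mmp+ and Trem2+ M2 macrophages had 501 ± 186 CPM and 406 ± 149.6 CPM (n = 12 each). Proliferating cancer cells had 69.6 ± 20.8 CPM (n = 7), and CD8 T cells were lowest at 45.5 ± 56.1 CPM (n = 8), which put the highest class mean 58.5 times above the lowest. The CD8 T cell mean was 29.2 CPM without ICB replicate 3 and rested on few cells, as described below for these cells. At least 1 Slc7a11 UMI was seen in 87.9% of Cxcr2+ neutrophils at a median of 2393 UMIs per cell, in 93.3% of M1 macrophages at 13258, 90.6% of Nos2+ cells at 9396, 88.9% of Vcan+ monocytes at 10527 and 76.5% of Hilpda+ neutrophils at 2660, against 8.23% of CD8 T cells at 6263. These shares were not set to a common depth. Along the order of 16 classes, the only neighbours whose means differed by more than their SDs were Hilpda+ neutrophils and Nos2+ cells.

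Slc3a2, the partner chain that system xc- shares with other amino acid transporters, showed no such difference. Its class means ran between 458 ± 147 CPM in Ifit+ neutrophils (n = 4) and 240.3 ± 30.9 CPM in proliferating cancer cells (n = 7), a ratio of 1.90. No neighbouring pair of classes differed by more than its SDs.

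The ligase subunits were highest in different cells. Gclc was highest in Mmp+ M2 macrophages at 59.4 ± 42.2 CPM (n = 12), followed by Nos2+ cells at 49.7 ± 26.5 CPM (n = 6) and Trem2+ M2 macrophages at 48.4 ± 21.4 CPM (n = 12). It was lowest in Cxcr2+ neutrophils at 17.7 ± 15.2 CPM (n = 11), and no neighbours in the order differed by more than their SDs. Without BD replicate 3, at 184 CPM, the Gclc mean in Mmp+ macrophages was 48.1 CPM. That lay below the means of Nos2+ cells and Trem2+ macrophages, so the top place of Gclc rested on this tumour. Gclm was highest in proliferating cancer cells at 179.6 ± 45.3 CPM (n = 7), then mesenchymal cells at 107 ± 15.8 CPM (n = 6). Its mean of 96.3 ± 155 CPM in Mmp+ macrophages rested on 1 tumour, BD replicate 3, at 582 CPM. NK cells had the lowest Gclm mean, 15.6 ± 9.69 CPM (n = 6).

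Gpx4, the glutathione peroxidase for membrane lipids, ran against Slc7a11. Proliferating cancer cells had 745 ± 56.3 CPM (n = 7) and mesenchymal cells 673 ± 35.0 CPM (n = 6), and this pair stood apart from NK cells, next at 393 ± 89.1 CPM (n = 6), by more than the SDs. Neutrophils were at the low end, with 225 ± 35.4 CPM in the Cxcr2+ class (n = 11) and 157 ± 61.4 CPM in the Hilpda+ class (n = 8). Over the 16 class means of log2(CPM + 1), Pearson's r between Gpx4 and Slc7a11 was −0.72, a description over classes that share tumours and libraries.

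Fth1 was the member closest to Slc7a11 across classes, with r = 0.97 over the same 16 means. Hilpda+ neutrophils had 75827 ± 9629.6 CPM (n = 8), Ifit+ neutrophils 58406 ± 17153 CPM (n = 4), Cxcr2+ neutrophils 51728 ± 8159 CPM (n = 11) and Mmp+ macrophages 42851 ± 9543 CPM (n = 12). CD8 T cells had 3464 ± 871 CPM (n = 8), so the class means spanned 21.9 times. Ferritin heavy chain has near-identical processed copies in the mouse genome, and how shared reads were assigned is not given in the sources used here.

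Hmox1 had its highest mean in Mmp+ M2 macrophages, at 2045 ± 1414 CPM (n = 12) with single tumours between 769 and 5840.0 CPM. Hilpda+ neutrophils came next at 867 ± 127 CPM (n = 8), a difference within the SDs, and Trem2+ macrophages 599 ± 218 CPM (n = 12). NK cells were lowest at 33.9 ± 40.0 CPM (n = 6). Srxn1 and Txnrd1 were both highest in Nos2+ cells, with Srxn1 at 139.6 ± 50.1 CPM and Txnrd1 at 510.4 ± 48.5 CPM (n = 6 each). Vcan+ monocytes and M1 macrophages came next for Srxn1, at 106 ± 30.9 CPM (n = 7) and 86.2 ± 28.3 CPM (n = 10). For Txnrd1, M1 macrophages had 371 ± 56.2 CPM (n = 10) and Vcan+ monocytes 341 ± 92.6 CPM (n = 7). CD8 T cells were lowest for both genes, at 20.2 ± 12.9 CPM and 84.4 ± 31.0 CPM (n = 8), and r between the pair was 0.88 over the 16 classes.

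Nqo1, a textbook NRF2 target, was nearly absent. The whole table held 22 Nqo1 UMIs in 22 of 5749 cells, or 0.383% of cells. In 9 classes, with 2366 cells and 23915669 UMIs together, the count was 0, which allows a level of up to 0.125 CPM from counting error alone. Nqo1 passed the low count filter in none of the 15 classes fitted and was not tested. The other 9 members passed it in 11 to 15 of the 15 classes: Gclm in 11, Gclc and Srxn1 in 12, Hmox1 in 13, Slc7a11 in 14, and Slc3a2, Gpx4, Txnrd1 and Fth1 in 15.

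**Figure D1:**
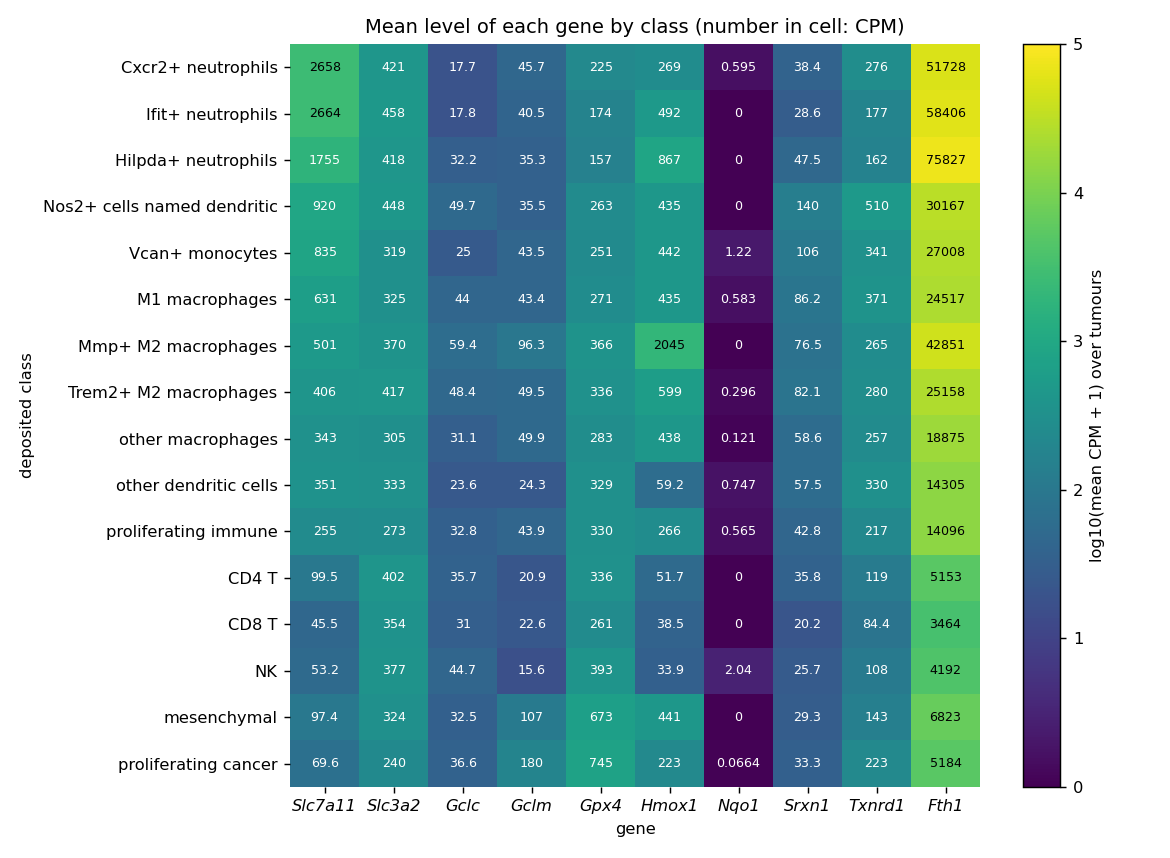
Mean level of each gene (columns) in 16 cell classes (rows) over tumours with at least 10 cells of the class; the number in a cell is the mean in CPM and the colour is log10(mean CPM + 1). Slc7a11 and Fth1 are highest in the neutrophil rows, Gpx4 and Gclm in the proliferating cancer row, Hmox1 in Mmp+ M2 macrophages, and Nqo1 is near 0 throughout.

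Among 5413 genes with a class mean of at least 20 CPM, the 3 closest to each member over the 16 classes were named. Slc7a11 was closest to Slc16a3, a lactate exporter, and to Trem1 and Ptafr, receptors of myeloid cells, all at r = 0.98. Fth1 was closest to Atp6v0c and Gab2 at 0.98 and Slc16a3 at 0.97. Hmox1 went with Atp6v1c1 at 0.95, and with Ctsb, a lysosomal protease, and Lhfpl2 at 0.94. Gpx4 was closest to Mrpl53 at 0.96 and to Selenof and Cfdp1 at 0.93. Gclm went with Anxa1 and Lpar1 at 0.91 and Eif4ebp1 at 0.90. Srxn1 was closest to Adora2b at 0.93 and Hpcal1 and Gm6377 at 0.91, and Txnrd1 to Hpcal1 at 0.91 and Itprid2 and Zfp516 at 0.90. Slc3a2 had Ulk1 and Dop1b at 0.86 and Hexim1 at 0.85, and Gclc had Impdh1 at 0.78 and Pabpc1 and Afg3l2 at 0.77. Nqo1 reached no more than 0.69, with Gm45716, followed by Ccdc12 at 0.66 and Car2 at 0.65. These values for Nqo1 rest on 22 UMIs in all, and its highest class mean, in NK cells, on 1 UMI.

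In group means, which deposited cells of a tumour held its Slc7a11 UMIs differed between diets, along with the shares of the classes among those cells. Leukocytes were enriched before capture, so these shares are not those of the whole tumour. Neutrophil classes held 12.6 ± 11.5% of Slc7a11 UMIs in BD+ICB tumours against 44.5 ± 17.2% in ICB tumours, and 13.1 ± 6.94% in BD tumours against 47.5 ± 7.80% in SD tumours (SD, n = 3 each). Neutrophils were 9.29% of cells in BD+ICB tumours (3.50 to 20.1%) against 35.3% in ICB tumours (12.7 to 47.6%). They were 20.4% in BD tumours (4.95 to 40.0%) against 36.03% in SD tumours (25.7 to 42.8%). Single tumours thus overlapped in both comparisons. Macrophage classes held 42.6% of Slc7a11 UMIs in BD+ICB tumours against 27.8% in ICB tumours, and 64.2% in BD tumours against 30.9% in SD tumours. Of Hmox1 UMIs, macrophages held 52.5% in BD+ICB, 51.7% in ICB, 86.5% in BD and 41.6% in SD tumours. Proliferating classes held 57.3% of Gclm UMIs in BD+ICB, 55.6% in ICB, 18.3% in BD and 43.2% in SD tumours. Mesenchymal cells held 5.70% of Gpx4 UMIs in BD+ICB tumours against 19.4% in ICB tumours, and 6.53% in BD tumours against 35.6% in SD tumours.

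Summed over all deposited cells of a tumour, 5 of the 9 members tested were higher in BD than in SD tumours at an adjusted p under 0.05, and none lower. These were Gclc, Hmox1, Srxn1, Fth1 and Txnrd1, by edgeR's quasi-likelihood test with Benjamini-Hochberg adjustment over all genes. Of all 11988 genes tested, 21.4% passed in either direction and 11.1% were higher. The median log2 fold was 0.77 over the members tested and 0.03 over all genes. In such a sum, a change in the number of cells of a type and a change in RNA per cell cannot be told apart.

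Gclc, the catalytic ligase subunit, had 37.8, 47.0 and 59.8 CPM in BD tumours, against 23.8, 23.0 and 23.4 CPM in SD tumours. No BD tumour was as low as any SD tumour, and Gclc rose by 1.16 ± 0.21 on the log2 scale (SE, adjusted p = 0.00299). In these sums the groups did not overlap for 37.8% of all genes, and BD tumours were the higher for 11.8%. Hmox1, the haem oxygenase, had 573, 1364 and 1449.9 CPM in BD tumours, against 306, 418 and 503 CPM in SD tumours. All 3 BD tumours lay above the SD range, with a log2 fold of 1.63 ± 0.37 (adjusted p = 0.0136). Fth1, the iron store, had 25063, 36312 and 30429 CPM in BD tumours, against 16269.8, 20397 and 19744 CPM in SD tumours, a log2 fold of 0.86 ± 0.20 (adjusted p = 0.0139) without overlap. Srxn1, which repairs peroxiredoxins, had 81.3, 60.7 and 81.2 CPM in BD tumours, against 47.2, 51.1 and 39.1 CPM in SD tumours, a log2 fold of 0.89 ± 0.21 (adjusted p = 0.0125). Txnrd1, the thioredoxin reductase, overlapped between groups, with 283, 172 and 256 CPM in BD tumours against 205, 185 and 172 CPM in SD tumours (log2 fold 0.51 ± 0.14, adjusted p = 0.0194). Txnrd1 was above the threshold without BD replicate 1 or 3 or SD replicate 2 or 3 (adjusted p 0.061 to 0.086), and Srxn1 without BD replicate 3 (adjusted p = 0.056). Slc7a11 did not pass, at 488, 675 and 391 CPM in BD tumours against 263, 354 and 388 CPM in SD tumours (log2 fold 0.77 ± 0.33, adjusted p = 0.123).

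With the neutrophil, mesenchymal and proliferating cancer classes left out of the sum, a choice made after the data were seen, 0 members passed in BD against SD, and 0 of all 10061 genes tested in that sum did. The log2 folds of the 5 genes were then 1.38 ± 0.39 for Hmox1, 0.96 ± 0.25 for Gclc, 0.43 ± 0.11 for Fth1, 0.39 ± 0.25 for Srxn1 and 0.14 ± 0.15 for Txnrd1 (adjusted p 0.296 to 0.850). Mesenchymal cells were 2.12% of cells in BD tumours against 12.2% in SD tumours, proliferating cancer cells 0.220% against 3.35% in SD tumours, and macrophages 56.9% against 31.4% in SD tumours, beside the neutrophil shares above.

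Under blockade, none of the 9 members passed in the same sums of BD+ICB against ICB tumours, where 6.48% of all genes did. At an unadjusted p under 0.05 there were 2, Srxn1 (log2 fold 0.63 ± 0.19, adjusted p = 0.0646) and Txnrd1 (0.43 ± 0.13, adjusted p = 0.0694), and DESeq2 called 1. Srxn1 had 62.2, 93.6 and 54.1 CPM in BD+ICB tumours against 56.5, 39.7 and 50.4 CPM in ICB tumours, which overlapped. Txnrd1 had 316, 314 and 293 CPM in BD+ICB tumours against 266, 227 and 248 CPM in ICB tumours, which did not, as for 32.5% of all genes. Averaged over both libraries, 4 members were higher with the diet, Srxn1 by 0.76 ± 0.14, Gclc by 0.67 ± 0.13, Fth1 by 0.58 ± 0.14 and Txnrd1 by 0.47 ± 0.09 on the log2 scale (adjusted p 0.00215 to 0.0114). These 4 of 9 stand beside 30.6% of all genes called in either direction and 15.4% called higher, and 0 of 9 passed without the 3 kinds of class named above, where 0.0696% of all genes did. Their log2 folds there were 0.51 ± 0.16 for Gclc, 0.37 ± 0.08 for Fth1, 0.29 ± 0.16 for Srxn1 and 0.23 ± 0.10 for Txnrd1 (adjusted p 0.1002 to 0.678). The test of whether the diet's effect differed with blockade called 0 members and 0.0% of all genes by edgeR. At an unadjusted p under 0.05 it had 2 members, Hmox1 (−1.87 ± 0.51, adjusted p = 0.259) and Gclc (−0.97 ± 0.26, adjusted p = 0.241), and DESeq2 called 1, Hmox1 (−1.85, adjusted p = 0.0402). Without BD replicate 1, edgeR called both (Hmox1 −2.20, adjusted p = 0.016, and Gclc −1.22, adjusted p = 0.028). Over all runs that left out 1 tumour, Hmox1 had −2.20 to −1.62 (adjusted p up to 0.483). Gclc had −1.22 to −0.72 (adjusted p up to 0.474).

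In the sums over all deposited cells, 1 member passed in each comparison of blockade with none. Hmox1 was lower in BD+ICB than in BD tumours, with 314, 339.8 and 454 CPM in BD+ICB tumours against the BD values above, a log2 fold of −1.72 ± 0.37 (adjusted p = 0.0229). The groups did not overlap, as for 31.5% of all genes, and 8.82% of all genes passed. Without BD replicate 2 or 3, or BD+ICB replicate 1 or 2, its adjusted p was 0.0700 to 0.0849. Gclc was higher in ICB than in SD tumours, with 49.7, 32.7 and 37.6 CPM in ICB tumours (log2 fold 0.72 ± 0.18, adjusted p = 0.0478), where 2.89% of all genes passed. That call was lost without any 1 of the 9 ICB, SD and BD+ICB tumours (adjusted p 0.060 to 0.16). Both comparisons run between the libraries.

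**Figure D2:**
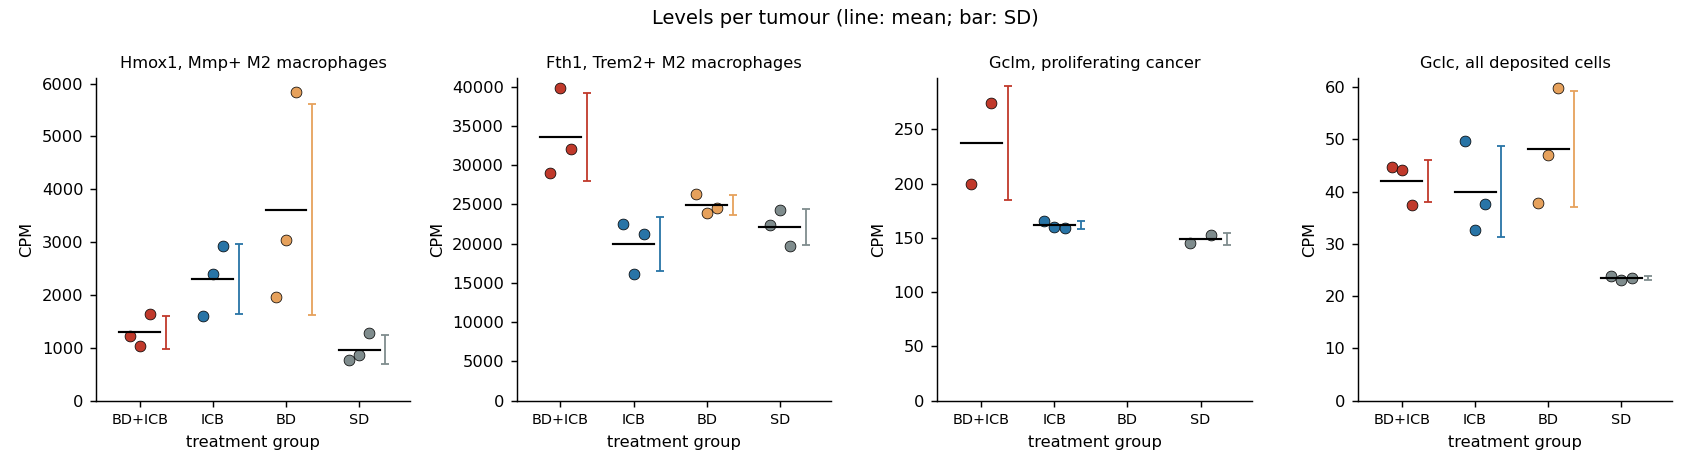
Levels per tumour in CPM of Hmox1 in Mmp+ M2 macrophages, Fth1 in Trem2+ M2 macrophages, Gclm in proliferating cancer cells and Gclc over all deposited cells; points are tumours, lines are means and bars are SDs by treatment group. All 3 SD tumours lie between 23.0 and 23.8 CPM for Gclc, below every tumour of the other groups, and the 3 BD tumours spread between 1960.4 and 5840.0 CPM for Hmox1.

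Within classes, few members passed. BD against SD could be tested in 4 classes (Cxcr2+ neutrophils and M1, Mmp+ and Trem2+ macrophages), those with at least 2 tumours of 10 cells in each group. Of 35 gene and class pairs of the members, 0 passed by edgeR, against 0.0309% of all pairs. At an unadjusted p under 0.05 there were 5 of 35, and 1455 of 19434 over all pairs, and DESeq2 called 2. The median log2 fold was 0.14 over member pairs and −0.01 over all pairs. The groups did not overlap in 8 of the 35 pairs, 6 higher and 2 lower in BD, where 23.3% of all pairs did not overlap.

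Slc7a11 in M1 macrophages came closest in BD against SD. It had 847 and 562 CPM in the 2 BD tumours with enough cells, against 333 and 356 CPM in the 2 SD tumours. The log2 fold was 1.02 ± 0.21 (adjusted p = 0.0626), and DESeq2 gave an adjusted p of 0.0357. Leaving out 1 tumour at a time gave log2 folds of 0.66 to 1.28, the highest without BD replicate 3, where 1 BD tumour remained. Over 7 alternative settings, edgeR or DESeq2 gave an adjusted p of 0.00108 to 0.764. BD replicate 2 had 1 such cell and SD replicate 2 had 4, so neither entered. Under blockade the same cells had 769, 855 and 741 CPM in BD+ICB tumours against 605, 581 and 660 CPM in ICB tumours. These did not overlap, as for 13.7% of all genes tested in this class, and the log2 fold of 0.37 did not pass. Averaged over both libraries, Slc7a11 in M1 macrophages rose by 0.70 ± 0.13 on the log2 scale with the diet (adjusted p = 0.0197), the only call among 35 member pairs, against 0.0309% of all pairs. It was lost without BD replicate 1 (0.52, adjusted p = 0.19) and without BD+ICB replicate 1 or 2, ICB replicate 1 or 2 or SD replicate 1 (adjusted p 0.062 to 0.10). Neutrophil markers summed to 177 to 252 CPM in these cells in BD tumours against 279 to 786 CPM in SD tumours.

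In Mmp+ macrophages, Gclm had the largest log2 fold of the members in BD against SD, 2.18, with 74.4, 30.7 and 582 CPM in BD tumours against 0, 38.0 and 90.4 CPM in SD tumours, which overlapped. Hmox1 in the same cells had 1960.4, 3043 and 5840.0 CPM in BD tumours, against 769, 859.5 and 1276 CPM in SD tumours. Every BD tumour lay above every SD tumour, with a log2 fold of 1.80 ± 0.40 that did not pass (adjusted p = 0.287). DESeq2 called it (adjusted p = 0.00388), as did edgeR without BD replicate 1 (2.11, adjusted p = 0.0053). Leaving out 1 tumour at a time, edgeR gave log2 folds of 1.23 to 2.11 and an adjusted p of up to 0.648. Under blockade the order turned, with 1216, 1032 and 1636 CPM in BD+ICB tumours against 1597, 2397 and 2921 CPM in ICB tumours, which overlapped. The test of that difference gave −2.61 ± 0.55 on the log2 scale (adjusted p = 0.521), and DESeq2 gave an adjusted p of 0.00557. By edgeR it was −2.91 without BD replicate 1 (adjusted p = 0.0070). Over all runs that left out 1 tumour it was −2.91 to −2.04, with an adjusted p of up to 0.994. Of the 35 member pairs, 0 passed this interaction test by edgeR, 6 had an unadjusted p under 0.05 and DESeq2 called 1, with 0.00515% of all pairs called by edgeR. Mmp+ macrophages were 15.5% of cells in BD tumours against 4.26% in SD tumours.

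Slc7a11 was higher in Cxcr2+ neutrophils in BD+ICB than in BD tumours. It had 3875, 4306 and 3813 CPM in BD+ICB tumours, 2845, 2415 and 3069 CPM in ICB tumours, 1430.1 and 1783 CPM in the 2 BD tumours with enough cells, and 2099, 1678 and 1926 CPM in SD tumours. BD+ICB tumours were highest and did not overlap with any other group. In this class 33.0% of all genes did not overlap between BD+ICB and BD tumours, and 15.4% between BD+ICB and ICB tumours. The log2 fold of BD+ICB over BD was 1.53 ± 0.27 (adjusted p = 0.000546), and it passed in every alternative run (adjusted p at most 0.0198). BD replicate 1 had 8 such cells and 3367 CPM and did not enter. Against ICB, the log2 fold was 0.61 ± 0.21 (adjusted p = 0.308). Slc3a2, the partner chain, had 695, 652 and 535 CPM in these cells in BD+ICB tumours against 403, 292 and 322 CPM in ICB tumours, without overlap (log2 fold 0.95 ± 0.27, adjusted p = 0.164). The summed neutrophil markers in these cells were 45307 to 84772 CPM in BD+ICB tumours, 52628 to 125901 CPM in ICB tumours and 104629 to 124367 CPM in BD tumours.

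Txnrd1 rose in the same neutrophils, with 428, 507 and 308 CPM in BD+ICB tumours against 29.2 and 162 CPM in BD tumours. The log2 fold was 2.41 ± 0.59 (adjusted p = 0.0152). The lower BD value was 1 UMI, and without that tumour, BD replicate 2, the fold was 1.57 (adjusted p = 0.41). Slc7a11 and Txnrd1 were the 2 calls among 35 member pairs in BD+ICB against BD, where 2.24% of all pairs passed. Gpx4 was lower in all 4 classes tested in that comparison, with log2 folds of −0.68 to −0.07 that did not pass.

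**Figure D3:**
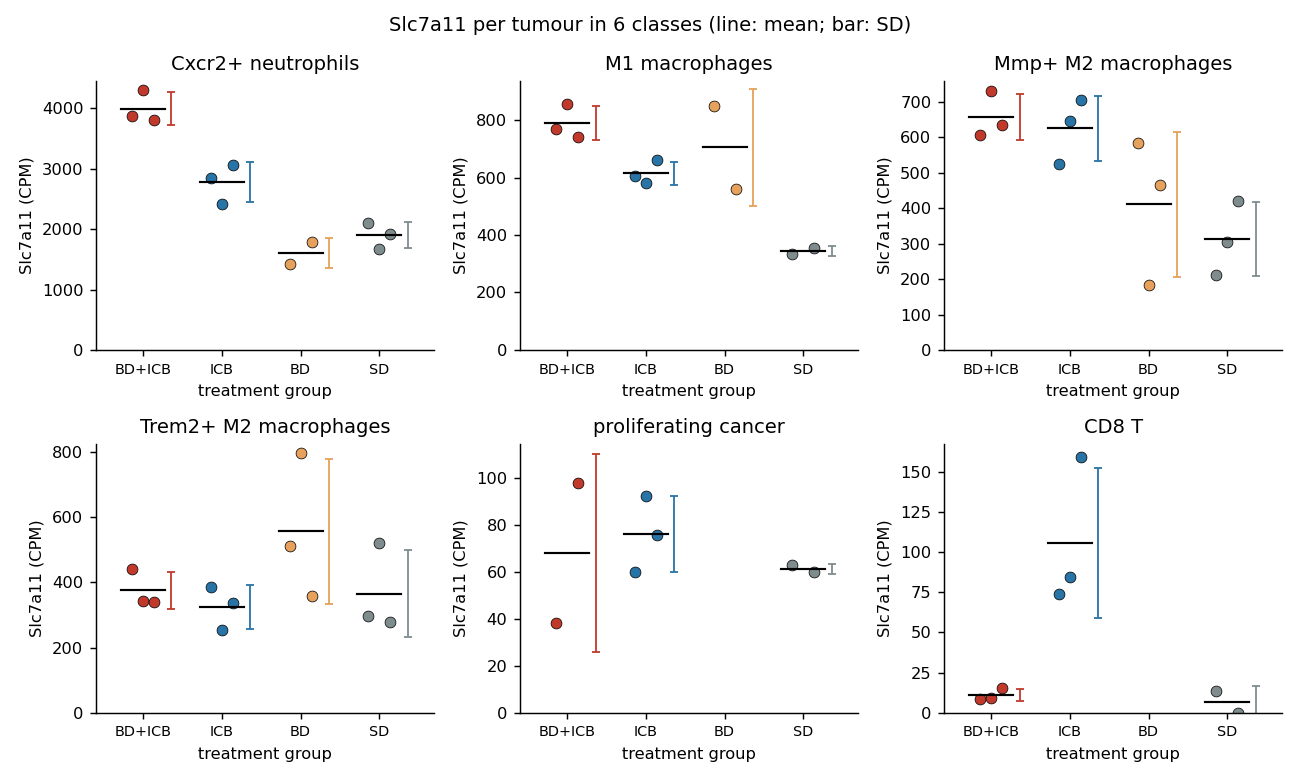
Slc7a11 in CPM per tumour in 6 classes, by treatment group, for tumours with at least 10 cells of the class (points: tumours, line: mean, bar: SD). In Cxcr2+ neutrophils the 3 BD+ICB tumours lie at 3813 to 4306 CPM, above all others, and in CD8 T cells the 3 ICB tumours lie at 73.7 to 159 CPM.

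BD+ICB against ICB could be tested in 13 classes, and 2 of 106 member pairs passed, against 0.299% of all pairs. One was lower and the other higher in BD+ICB. At an unadjusted p under 0.05 there were 20 of 106 member pairs and 5346 of 66457 pairs over all genes. The median log2 fold was 0.08 over member pairs and −0.01 over all pairs. The groups did not overlap in 33 member pairs, 20 higher and 13 lower in BD+ICB, where 20.3% of all pairs did not.

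**Figure D4:**
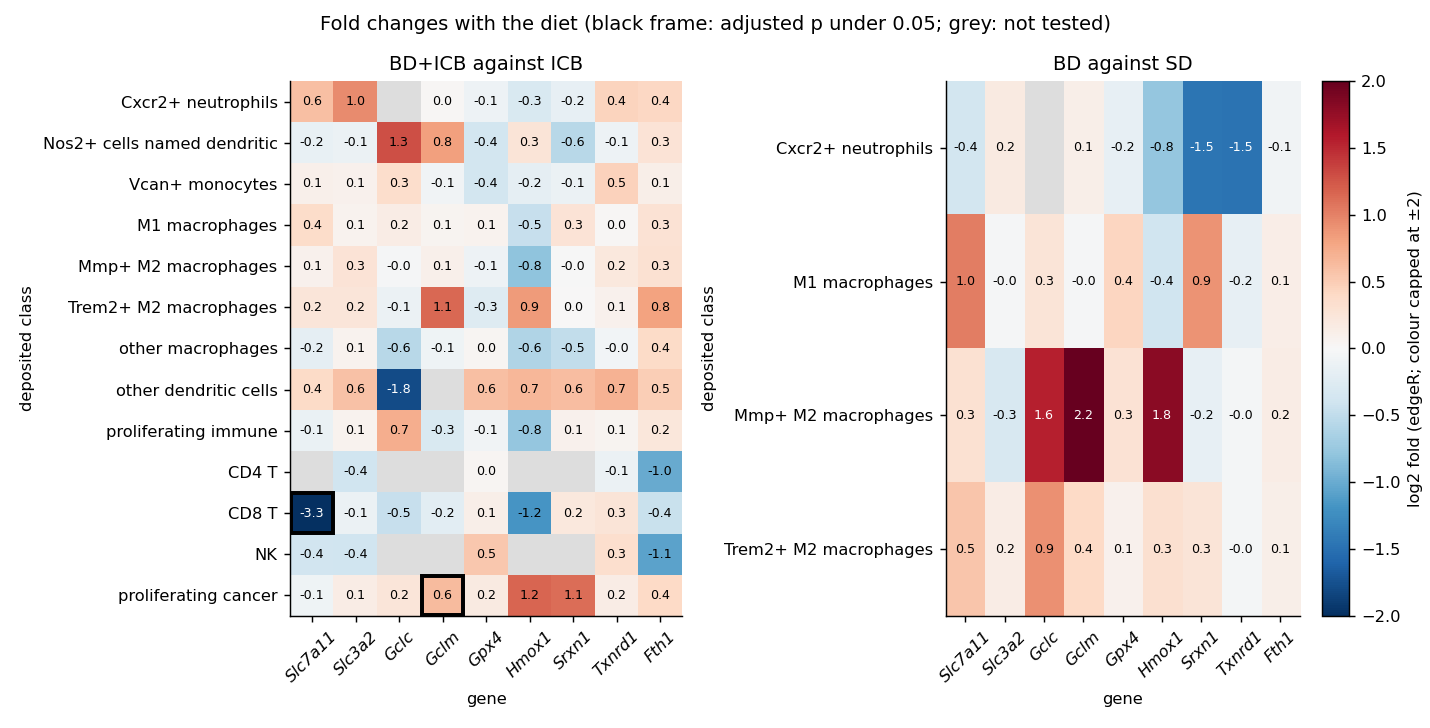
log2 fold of each member with the diet (colour and number), for BD+ICB against ICB in 13 classes on the left and BD against SD in 4 classes on the right; black frames mark an adjusted p under 0.05 by edgeR and grey cells were not tested. The 2 framed cells are Slc7a11 in CD8 T cells, at −3.25, and Gclm in proliferating cancer cells, at 0.64.

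The lower one was Slc7a11 in CD8 T cells. It had 8.45, 8.90 and 15.4 CPM in BD+ICB tumours, against 73.7, 84.6 and 159 CPM in ICB tumours. Every BD+ICB tumour lay below every ICB tumour, with a log2 fold of −3.25 ± 0.36 (adjusted p = 3.81e-06). The UMIs behind it were few and unevenly spread. BD+ICB tumours held 22 Slc7a11 UMIs in 17 of 303 CD8 T cells, and ICB tumours held 134 UMIs in 27 of 215 cells, of which 110 were in the top 3 cells of each tumour. Cells with a UMI of S100a8 or S100a9, calprotectin genes that mark neutrophils, held 5 of the 22 UMIs in BD+ICB tumours and 122 of the 134 in ICB tumours. Such cells were 58 of the 303 in BD+ICB tumours and 43 of the 215 in ICB tumours. The summed neutrophil markers in CD8 T cells were 51.2 to 63.9 CPM in BD+ICB tumours against 466 to 1914 CPM in ICB tumours, with 0 of 6 tested markers called. T cell markers summed to 4298 to 5217 CPM in BD+ICB tumours against 3836 to 4896 CPM in ICB tumours. Cells failing the stricter hashtag rule held 5 UMIs in BD+ICB tumours (6 cells) and 89 in ICB tumours (15 cells).

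Under the stricter hashtag rule, CD8 T cells had 9.13, 4.98 and 15.4 CPM in BD+ICB tumours against 12.7, 59.2 and 69.3 CPM in ICB tumours, which overlapped (log2 fold −2.23 ± 0.66, adjusted p = 0.402). Without the cells that held S100a8 or S100a9 UMIs, a choice made after the data were seen, they had 6.54, 8.43 and 17.2 CPM in BD+ICB tumours against 8.65, 12.2 and 15.7 CPM in ICB tumours. The difference between groups was then within their spread, and Slc7a11 no longer passed the low count filter. In SD tumours, 21 of the 22 Slc7a11 UMIs of CD8 T cells lay in 1 cell of replicate 2.

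**Figure D5:**
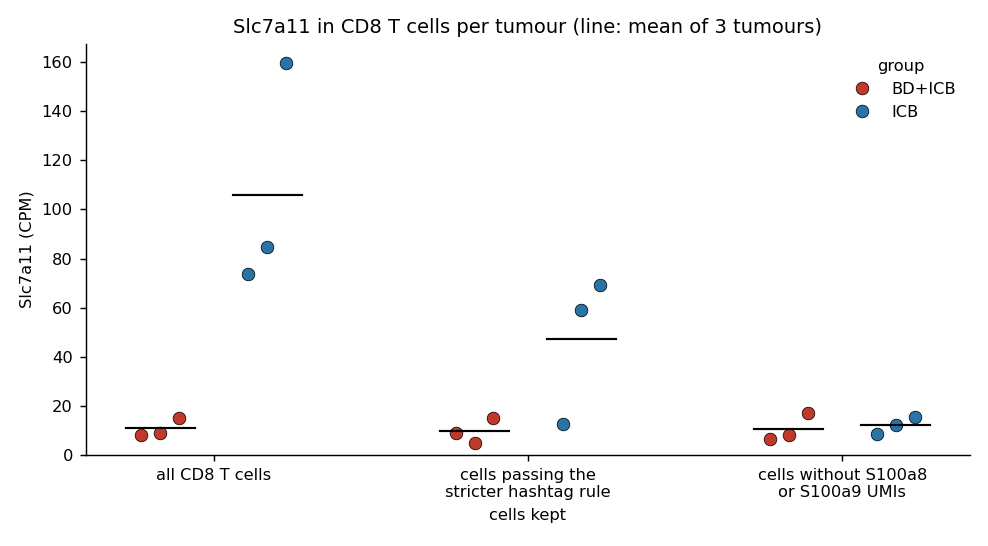
Slc7a11 in CD8 T cells in CPM per tumour for BD+ICB (left of each pair) and ICB tumours, with all cells, with cells passing the stricter hashtag rule and with cells without S100a8 or S100a9 UMIs (line: mean of 3 tumours). The ICB tumours lie at 73.7 to 159 CPM over all cells and at 8.65 to 15.7 CPM without the S100a8 or S100a9 cells, within the range of the BD+ICB tumours.

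The higher one was Gclm, the modifier ligase subunit, in proliferating cancer cells. It had 200 and 274 CPM in the 2 BD+ICB tumours with enough cells, against 166, 160 and 159 CPM in ICB tumours. The groups did not overlap, as for 32.4% of all genes tested in this class, and Gclm rose by 0.64 ± 0.14 on the log2 scale (adjusted p = 0.0404). BD+ICB replicate 3 had 6 such cells, at 221 CPM, and did not enter. The call was lost without BD+ICB replicate 2 (0.38, adjusted p = 0.42), without any 1 ICB tumour or SD replicate 1 or 3 (adjusted p 0.067 to 0.18), and under the stricter hashtag rule (adjusted p = 0.113). Srxn1 in the same cells had 32.5 and 62.5 CPM in BD+ICB tumours against 18.6, 27.6 and 23.8 CPM in ICB tumours (log2 fold 1.12 ± 0.27, adjusted p = 0.079). Prostate epithelium markers summed to 466 to 643 CPM in BD+ICB tumours against 980.1 to 1230 CPM in ICB tumours, with 0 of 3 tested called.

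Fth1 in Trem2+ macrophages did not pass under the diet with blockade, at 28999, 39856 and 32044 CPM in BD+ICB tumours against 22495, 16076 and 21229 CPM in ICB tumours. The groups did not overlap (log2 fold 0.81 ± 0.16, adjusted p = 0.0984). The stricter hashtag rule brought it under the threshold (adjusted p = 0.035), as did leaving out BD replicate 1 (adjusted p = 0.041) or BD+ICB replicate 1 (adjusted p = 0.038). Over all runs that left out 1 tumour, the log2 fold was 0.67 to 0.92 and the adjusted p reached 0.911. Fth1 was higher in BD+ICB than in ICB in 10 of the 13 classes tested, with log2 folds of −1.07 to 0.81, none of which passed. Hmox1 in CD8 T cells had 20.3, 21.8 and 12.8 CPM in BD+ICB tumours against 33.8, 63.5 and 42.8 CPM in ICB tumours (log2 fold −1.18 ± 0.34, adjusted p = 0.144), beside the neutrophil markers of these cells given above. Txnrd1 had a median log2 fold of 0.15 over 13 classes, 10 of them above 0, and Slc3a2 of 0.08, 9 of them above 0.

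ICB against SD, on standard chow, could be tested in 12 classes, where 2 of 100 member pairs passed against 2.46% of all pairs. Fth1 was lower in mesenchymal cells, with 4390.0, 5879.8 and 5822 CPM in ICB tumours against 7366, 9147 and 8332 CPM in SD tumours. The groups did not overlap (log2 fold −0.75 ± 0.13, adjusted p = 0.00821), as for 25.7% of all genes in this class. The call was lost without SD replicate 2 (adjusted p = 0.074) and under the stricter hashtag rule (adjusted p = 0.0679). Macrophage markers in those mesenchymal cells summed to 137 to 892 CPM in ICB tumours against 2031 to 4026 CPM in SD tumours, with 3 of 10 called lower, and their part in the result was not tested. Gclc was higher in Trem2+ macrophages, with 83.6, 38.6 and 43.7 CPM in ICB tumours against 28.6, 23.3 and 22.7 CPM in SD tumours (log2 fold 1.35 ± 0.33, adjusted p = 0.0179). Without ICB replicate 1 its fold was 0.69 (adjusted p = 0.56), and DESeq2 gave an adjusted p of 0.0924. It was also lost without SD replicate 2 or 3 (adjusted p 0.050 and 0.089). Slc7a11 was higher in ICB than in SD tumours in 10 of 12 classes, with a median log2 fold of 0.61. Gpx4 was lower in 12 of 12, with a median of −0.28, beside 0.02 over all pairs. Neither passed in any class, the classes share tumours, and the comparison runs between the libraries. The Slc7a11 count includes CD8 T cells, where few cells held its UMIs, and NK cells at 3.90, which became −2.45 without ICB replicate 1.

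Genes around the members were followed in 8 lists, which were drawn up with earlier results of these data known. Within classes, the diet without blockade moved 1 listed gene, Ptgs2, the inducible cyclooxygenase also read as a ferroptosis marker. In M1 macrophages Ptgs2 had 1047 ± 379 CPM in BD tumours against 209.8 ± 53.5 CPM in SD tumours (n = 2 each, log2 fold 2.27 ± 0.31, adjusted p = 0.0172). No gene passed among 9 NRF2 regulators, 24 genes of glutathione synthesis and use, 16 of thioredoxin and peroxiredoxin, 6 NADPH enzymes, 18 of iron and haem handling, 20 of the ATF4 amino acid response and 6 of the NADPH oxidase. Under blockade 3 listed genes passed within classes. Gstm5, a glutathione transferase, rose in CD8 T cells to 63.0 ± 29.2 CPM in BD+ICB tumours, against 19.0 ± 7.26 CPM in ICB tumours (n = 3 each, log2 fold 1.63 ± 0.38, adjusted p = 0.0379). Ptgs2 fell there to 33.8 ± 14.3 CPM in BD+ICB tumours, against 100.4 ± 33.6 CPM in ICB tumours (log2 fold −1.37 ± 0.31, adjusted p = 0.0379). Neutrophil markers in CD8 T cells were lower in BD+ICB tumours too, as given above, and their part in the Ptgs2 result was not tested. Ddit4, a stress gene of the ATF4 list, fell in proliferating cancer cells to 35.1 ± 8.97 CPM in BD+ICB tumours (n = 2), against 73.5 ± 8.54 CPM in ICB tumours (n = 3, log2 fold −1.002 ± 0.21, adjusted p = 0.0341).

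In ICB against SD, more listed genes passed, and so did more of all pairs (2.46%, against 0.299% in BD+ICB against ICB and 0.0309% in BD against SD). In Trem2+ macrophages, the small Maf proteins that partner NRF2 rose, Mafk to 87.8 ± 23.2 CPM in ICB tumours against 34.1 ± 13.3 CPM in SD tumours (log2 fold 1.37 ± 0.27, adjusted p = 0.00642), and Maff by 0.97 ± 0.26 (adjusted p = 0.0281). In other macrophages, glutathione reductase Gsr rose by 1.90 ± 0.34, the exporter Abcc1 by 1.80 ± 0.38 and glutaredoxin Glrx by 0.95 ± 0.22 (adjusted p 0.00143 to 0.0138), while Prdx4, a peroxiredoxin of the secretory pathway, fell by 1.79 ± 0.27 (adjusted p = 0.000269). Ferritin light chain Ftl1 fell by 0.49 ± 0.12 in other macrophages and by 0.74 ± 0.21 in Trem2+ macrophages (adjusted p 0.0182 and 0.0451). Of 163 thioredoxin and peroxiredoxin pairs, 1 was higher and 5 lower, and of 122 glutathione pairs 4 were higher and 0 lower, beside 1.00% of all pairs higher and 1.46% lower. BD+ICB against BD moved Mafk (1.19 ± 0.31) and the iron transporter Slc11a1 (1.64 ± 0.35) in Trem2+ macrophages and the oxidase subunit Cybb (1.18) there and in M1 macrophages, all higher (adjusted p 0.0126 to 0.0468).

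In sums over all deposited cells, 8 of 19 tested genes of the ATF4 list were lower in BD than in SD tumours. None, 0, was higher, and 10.2% of all genes were lower. Asns, asparagine synthetase, had 6.85 ± 2.62 CPM in BD tumours against 55.5 ± 4.85 CPM in SD tumours (log2 fold −2.70 ± 0.28, adjusted p = 0.000416), and Psat1, of serine synthesis, 11.3 ± 6.71 CPM in BD tumours against 50.8 ± 4.81 CPM in SD tumours. In BD+ICB against BD, 9 of the 19 were higher and 1 lower, beside 3.90% of all genes higher and 4.91% lower, with Asns at 42.2 ± 11.9 CPM in BD+ICB tumours. Slc7a11, a gene that ATF4 also drives, did not pass in either sum. Higher in BD tumours, beside 11.1% of all genes, were 4 of 9 NRF2 regulators, among them Nfe2l2, the gene of NRF2, at 400.2 ± 34.1 CPM against 298 ± 15.6 CPM in SD tumours, and Bach1 at 143 ± 12.4 CPM against 88.3 ± 15.0 CPM in SD tumours (adjusted p 0.00675 and 0.00358). So were 4 of 6 NADPH oxidase genes, 5 of 17 iron and haem genes with 1 lower, 4 of 19 glutathione genes, 3 of 16 thioredoxin genes with 2 lower, 3 of 6 NADPH enzymes with 1 lower and 3 of 12 ferroptosis genes with 1 lower. In the same sums, 6 of 10 macrophage markers were higher and 6 of 10 mesenchymal markers lower in BD than in SD tumours, and 9 of 10 macrophage markers were lower in BD+ICB than in BD tumours. Their part in these results was not tested.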

How the data were processed

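The deposited files held UMI counts per gene and cell, hashtag counts per barcode and, per the file headers, a class, treatment and tumour for each cell. Per the file headers the gene matrices came from Cell Ranger 6.1.1, and per the submitters' processing notes Cell Ranger, R 4.1 and mm10 were used; no source used here gives the cell filters, clustering, doublet handling or class naming. The percent of mitochondrial UMIs per cell, as deposited by the authors, had a median of 1.98 to 3.40% per tumour.

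UMI counts were summed per tumour and class, and sums of at least 10 cells were kept. Genes were tested in each class with at least 2 tumours in both groups with edgeR 4.0.16 in R 4.3.3 (TMM, filterByExpr, robust quasi-likelihood fit over all groups), with p-values adjusted by Benjamini-Hochberg over the genes tested in that class and a threshold of 0.05. Standard errors are the log2 fold divided by the root of F. The same fit was made on all deposited cells of a tumour. The p-values measure the spread between tumours. The steps were tested on simulated data with known changes. DESeq2 1.42.0, other size factors, no count filter, stricter assignment of cells to tumours (10 or more counts of the leading hashtag, 3-fold over the runner-up), deeper cells, more cells per tumour, a replicate block and leaving out each tumour were alternatives.

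The members and lists were chosen with earlier results of these data known. Named genes were the 10 members, at most 3 called genes per list and comparison by smallest adjusted p, and the 3 genes most like each member over classes. Replicate numbers were not taken as pairs, and whether they pair tumours is not settled. Same-numbered BD and SD tumours deviated together with r = 0.28, 0.087 and 0.073 over 10355 genes, and BD+ICB and ICB tumours with r = 0.24, 0.026 and 0.30. Tumours of different numbers had r of −0.42 to 0.22 in the same comparisons. The replicate block is therefore given as an alternative.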

Additional observations from a re-analysis of the deposited data

Results flagged for a closer look

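In BD+ICB against ICB, 3 members lay wholly above the ICB tumours in some classes and wholly below them in others. Differences between classes were not tested, and 20.3% of all gene and class pairs had groups that did not overlap.

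Fth1, the iron store, had a log2 fold of 0.81 in Trem2+ M2 macrophages, −1.01 in CD4 T cells and −0.45 in CD8 T cells. In CD4 T cells it had 4759, 3021 and 2447 CPM in BD+ICB tumours against 7519.8, 7909 and 5260.4 CPM in ICB tumours. In CD8 T cells it had 3323, 2619 and 2695 CPM in BD+ICB tumours against 3396, 4257 and 4174 CPM in ICB tumours. The summed neutrophil markers in these CD8 T cells were 51.2 to 63.9 CPM in BD+ICB tumours against 466 to 1914 CPM in ICB tumours, and their part in the result was not tested. In CD4 T cells the neutrophil markers summed to 1462 CPM, with 4 of 8 at 20 CPM or more. They were not compared between groups there, and their part in the Fth1 values was not tested. None of these Fth1 folds passed the edgeR test.

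Slc3a2, the shared transporter chain, had a log2 fold of 0.28 in Mmp+ M2 macrophages, 0.95 in Cxcr2+ neutrophils and −0.39 in CD4 T cells. In CD4 T cells it had 386, 337 and 319 CPM in BD+ICB tumours against 509.8, 409.5 and 454 CPM in ICB tumours. None passed.

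Slc7a11, the cystine chain, had a log2 fold of 0.37 in M1 macrophages, 0.61 in Cxcr2+ neutrophils and −3.25 in CD8 T cells. The value in CD8 T cells was the one that passed, and 122 of its 134 UMIs in ICB tumours lay in cells with S100a8 or S100a9 UMIs.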

How the results depend on the processing

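Counts of members called within classes depended on the setting, and each is given with the percent of all gene and class pairs called under it. DESeq2 called 2 in BD against SD (0.0772%), 4 in BD+ICB against ICB (0.327%) and 1 in the interaction (0.036%). With no count filter there were 2 in BD against SD (0.125%), 5 in BD+ICB against ICB (0.595%), 2 for the diet over both libraries (0.227%), 1 in the interaction (0.0502%) and 11 in ICB against SD (1.54%). The stricter hashtag rule gave 1 in BD against SD (0.038%), 1 in BD+ICB against ICB (0.249%) and 1 in ICB against SD (2.05%). With a replicate block there were 1 in BD against SD (0.0309%), 6 in BD+ICB against ICB (0.773%), 1 in the interaction (0.0103%) and 7 in ICB against SD (3.04%). BD+ICB against ICB had 1 with only its own library (0.331%) and 1 with at least 30 cells per tumour (0.293%), where ICB against SD had 0 (2.23%). Leaving out 1 tumour gave 0 to 1 in BD against SD (0.00954 to 0.109%), 1 to 5 in BD+ICB against ICB (0.162 to 0.523%), 0 to 1 for the diet over both libraries (0.0199 to 0.0953%), 0 to 1 in the interaction (0 to 0.0478%), 1 to 5 in ICB against SD (1.27 to 2.71%) and 1 to 5 in BD+ICB against BD (0.687 to 3.22%).

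Counts in the sums over all deposited cells are given with the percent of all genes. DESeq2 gave 1 in BD+ICB against ICB (9.70%), 1 in the interaction (0.367%) and 2 in BD+ICB against BD (11.6%). The replicate block gave 1 (11.0%), 1 (0.133%) and 2 (10.7%) in the same comparisons. Without neutrophil, mesenchymal and cancer classes there were 0 in BD against SD (0%), 0 for the diet over both libraries (0.0696%), 0 in ICB against SD (7.65%) and 2 in BD+ICB against BD (8.57%). The stricter hashtag rule gave 0 in ICB against SD (2.28%). Leaving out 1 tumour gave 4 to 5 in BD against SD (11.6 to 21.1%), 0 to 1 in BD+ICB against ICB (0.543 to 9.17%), 4 to 6 for the diet over both libraries (23.1 to 31.0%), 0 to 2 in the interaction (0 to 1.85%), 0 to 2 in ICB against SD (0.142 to 4.19%) and 0 to 3 in BD+ICB against BD (1.46 to 12.7%). The cause was not tested.

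Under the block, Gclm in proliferating cancer cells had an adjusted p of 0.0611, and Hmox1 in Mmp+ macrophages 0.00147 in BD against SD. Slc7a11 in NK cells, at 3.90 in ICB against SD, ranged between −2.45, without ICB replicate 1, and 6.51, without SD replicate 1. Settings other than leaving out a tumour moved 15 class levels by over 1 SD and 425 by less. Requiring 30 cells gave no value for BD+ICB against BD, the interaction or the diet over both libraries. No barcode had under 500 UMIs, so levels in free RNA could not be given.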
